A study of Mus musculus with 6 samples.

Results

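The genes described here encode the membrane-proximal machinery of the T cell receptor, and their transcripts were followed in regulatory T cells (Tregs) of tumour-draining lymph nodes with and without Il33. A list of 38 gene symbols set the members, and their rows were read from all 3 deposited tables by symbol or by gene ID. All 38 were found among the 37187 gene IDs of the raw count table, and all 38 passed the filter on low counts, so every member was tested. The list comprises 8 receptor chains and the co-receptor, 4 kinases, 8 adaptors and effectors, 3 genes of the NF-kappaB branch, 5 genes of calcineurin and NFAT, and 10 regulators that mostly damp the signal.

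Tregs, the CD4 T cells that restrain immune responses, were isolated as CD4+CD25+GITR+ cells, and the labels' cell type also names Foxp3. Both groups carried B16.F10 melanoma, a transplantable mouse tumour line of which 300000 cells had been injected s.c., and nodes were collected on day 14. The WT group (C57BL6, replicates 1 to 3) and the KO group (il33-/- on a C57BL6 background, replicates 4 to 6) had 3 libraries each. The labels give neither the sex or age of the mice, nor the deleted part of Il33, nor whether a library came from 1 animal or a pool, so a p-value measures only the spread between these libraries.

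The antigen-binding alpha and beta chains of the receptor have no signalling domain of their own and rely on the CD3 chains and the zeta chain (Cd247). When the receptor binds its ligand, LCK phosphorylates motifs in those chains, ZAP-70 docks there and phosphorylates the adaptors LAT and SLP-76, and phospholipase C gamma then opens a calcium branch, read by calcineurin and NFAT, and a diacylglycerol branch, read by PKC theta and the Ras pathway. Phosphatases, ubiquitin ligases and diacylglycerol kinases hold the cascade in check, and Tregs depend on signals through this receptor for their suppressive function.

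The promoters of 3 members are shown: Lcp2 and Ptpn6, the members whose transcripts passed the test, and Cd3e, a core receptor chain whose transcript did not. Each is the 250 bases before the annotated start in RefSeq (GRCm38.p6), where 30 of the 38 genes had an entry. Capitals mark every match, on either strand, to the letters of 6 motifs: ETS (CNGGAAG), RUNX (TGTGGT), AP-1 (TGANTCA), NFAT (GGAAAA), the GC box (GGGCGG) and the E box (CAGCTG).
Lcp2, chr11:34046678-34046927, plus strand: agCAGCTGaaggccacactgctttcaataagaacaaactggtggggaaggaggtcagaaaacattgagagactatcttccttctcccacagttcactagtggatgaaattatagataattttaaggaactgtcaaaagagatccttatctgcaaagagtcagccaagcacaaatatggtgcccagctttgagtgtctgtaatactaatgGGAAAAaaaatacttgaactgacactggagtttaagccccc
Ptpn6, chr6:124738710-124738959, minus strand: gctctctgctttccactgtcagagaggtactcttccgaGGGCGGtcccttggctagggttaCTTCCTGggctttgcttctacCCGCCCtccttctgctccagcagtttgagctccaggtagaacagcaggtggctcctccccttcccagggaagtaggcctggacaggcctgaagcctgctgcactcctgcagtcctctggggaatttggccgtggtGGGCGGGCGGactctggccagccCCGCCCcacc
Cd3e, chr9:45009612-45009861, minus strand: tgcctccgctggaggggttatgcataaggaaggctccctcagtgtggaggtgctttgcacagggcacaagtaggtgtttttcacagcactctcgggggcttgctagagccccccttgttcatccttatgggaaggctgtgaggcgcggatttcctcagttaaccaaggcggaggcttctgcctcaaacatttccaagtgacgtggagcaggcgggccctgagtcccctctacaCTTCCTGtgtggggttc
The Lcp2 window held 41.2% G and C, with 1 match to the NFAT letters 41 bases before the start and 1 E box 248 bases before it. The Ptpn6 window held 63.2% G and C, with 5 GC box matches, of which those 33 and 29 bases before the start overlap, and 1 ETS match 189 bases before it. In the Cd3e window (57.2% G and C) the ETS letters matched 17 bases before the start. Over the 45 windows of the 30 members the GC box was found in 44.4%, against 32.7% of all 32851 windows of this length. Some genes have several windows, which can share a match, so windows are not independent. Counted by gene, the GC box was found in 17 of the 30 members. No share by gene was computed over all genes, and the share of windows is no measure for this count. The ETS letters were found in 22.2% of member windows against 26.6% of all, the NFAT letters in 9 of 45 against 20.4% and the RUNX letters in 11.1% against 14.0%. The E box stood in 2.22% of member windows against 13.0% of all, and the AP-1 letters in 0 of 45 against 6.75% of all. These are matches of letters and show no binding.

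Library totals lay between 18071928 and 21165063 counts, and each member had between 865 and 56393 counts in a library. Il33 had 0 to 9 counts in any library and could not check the genotype labels. Treg markers were present: Foxp3 ran from 719 to 857 CPM (counts scaled to library size with TMM factors) over the 6 libraries. The sum of 6 Treg-defining genes (Foxp3, Il2ra, Tnfrsf18, Ctla4, Ikzf2 and Ikzf4) was 3083, 3618 and 3194 CPM in WT and 4118, 3915 and 3827 CPM in KO, without overlap. All 6 had a positive log2 fold change, of at least 0.148, and the median was 0.20. Ctla4 and Ikzf4 passed the edgeR threshold used below as higher in KO, and 5 of the 6 had an unadjusted edgeR p under 0.05. Of 19 general T cell markers, 4 passed the edgeR threshold used below as higher in KO and 0 as lower (3.68% and 2.83% of all genes tested). Their median log2 fold change was 0.06, and without overlap 7 lay above WT and 0 below (13.7% and 12.6% of all genes). This list shares 8 genes with the other pathway genes described below, Cd28 and Skap1 among them. Markers of B cells were present too, at lower levels in KO. The summed level of the 18 measured B cell markers was 4068, 2409 and 3337 CPM in WT replicates 1, 2 and 3 and 1490, 1826 and 1469 CPM in KO replicates 4, 5 and 6, with no marker at 0 (exact two-sided permutation p = 0.1, the smallest that 3 against 3 allows). Every WT library therefore lay above every KO library. The median log2 fold change of these markers was -1.88, yet 0 of 18 passed the edgeR threshold used below, while 17 had an unadjusted p under 0.05, DESeq2 called 15 lower and limma-voom 7. In WT replicate 2 a single marker, Cd72, gave 558 CPM of its sum, and without Cd72 that library held 1851 CPM, just above the highest KO library at 1783 CPM. Marker sums of CD8 T cells, gamma delta T cells, NK cells and myeloid cells were at most 56.0 CPM in any library.

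Transcript levels of the receptor machinery differed little between genotypes, by less than 1.25-fold for most members. Lcp2, which encodes the adaptor SLP-76, rose 1.20-fold in KO Tregs, and Ptpn6, which encodes the phosphatase SHP-1, fell to 0.780 of its WT level. The other 36 members did not pass the test (edgeR quasi-likelihood test, Benjamini-Hochberg adjusted over 13626 genes, threshold 0.05). The same rule called 6.5% of all genes tested, 3.68% higher and 2.83% lower in KO, so 2 of 38 was close to the background share. The median log2 fold change of the members was 0.03, with quartiles of -0.04 and 0.10, beside a median of 0.00 and quartiles of -0.12 and 0.13 over all genes tested. Positive values were found for 21 members and negative values for 17, and with upper-quartile scaling Cd4, Zap70, Grap2 and Ptprc, all near 0, turned from negative to positive. For 34 of 38 members the 95% interval of the change lay within 1.25-fold in either direction, against 44.3% of all genes tested. The width of an interval depends on counts as well, and no share was computed over genes of similar level. The median absolute log2 fold change was 0.09 for the members and 0.12 for all genes tested. Lcp2, Ptpn6, Ppp3ca and Cbl were the members whose interval passed 1.25-fold. Of these, Cbl alone had an interval that reached 1.5-fold. In bulk RNA, fewer cells of a type and less RNA per cell cannot be told apart.

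**Figure D1:**
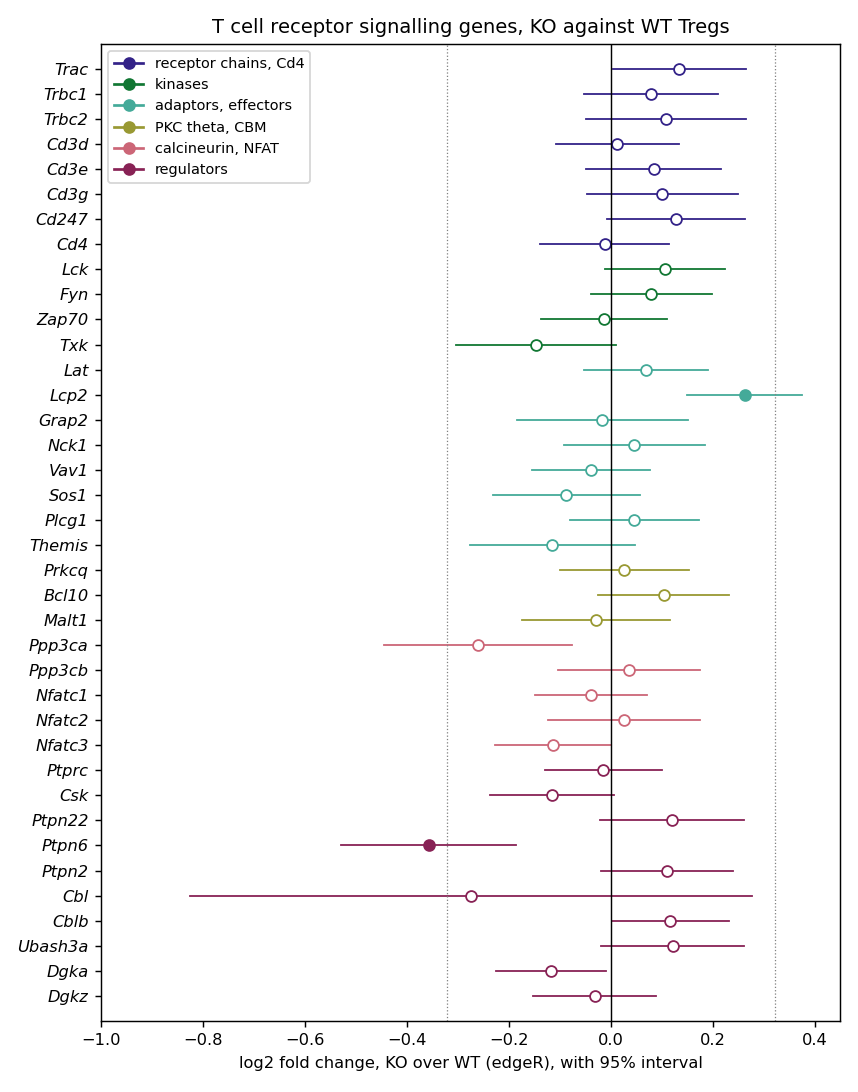
Log2 fold change of each of the 38 genes, KO over WT (horizontal axis; points, edgeR estimates; bars, 95% intervals; filled points, adjusted p under 0.05; colours, roles; dotted lines, 1.25-fold). Lcp2 at 0.26 and Ptpn6 at -0.36 are the filled points, and Cbl has the widest interval.

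In levels per length, as deposited FPKM, the machinery spanned from 762 ± 36.2 for Trac to 5.63 ± 0.421 for Themis in WT (mean ± SD, n = 3). The constant chains of the receptor headed the order, with Trbc2 at 737 and Trbc1 at 495 FPKM, followed by the diacylglycerol kinase Dgka at 470, the phosphatase CD45 (Ptprc) at 462 and the adaptor Lat at 410. Cd3g (376), Lck (288), Cd3e (254) and Cd3d (204) came next. The zeta chain Cd247, at 47.6 FPKM, lay far below the other CD3 chains per length. In CPM, which is not divided by length, the WT means were 257 for Cd247 and 271 for Cd3d. The FPKM gap of that pair therefore rests on the gene lengths used. At the low end stood Nck1 (10.5), Sos1 (7.79) and Themis. In 19 of the 37 neighbouring pairs of this order the WT libraries of both genes overlapped, so those neighbours are not ranked beyond their spread. The order was largely shared by KO Tregs: 34 of 38 genes kept their rank within 1 place, while Ptpn6 stood 13th in WT and 17th in KO.

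**Figure D2:**
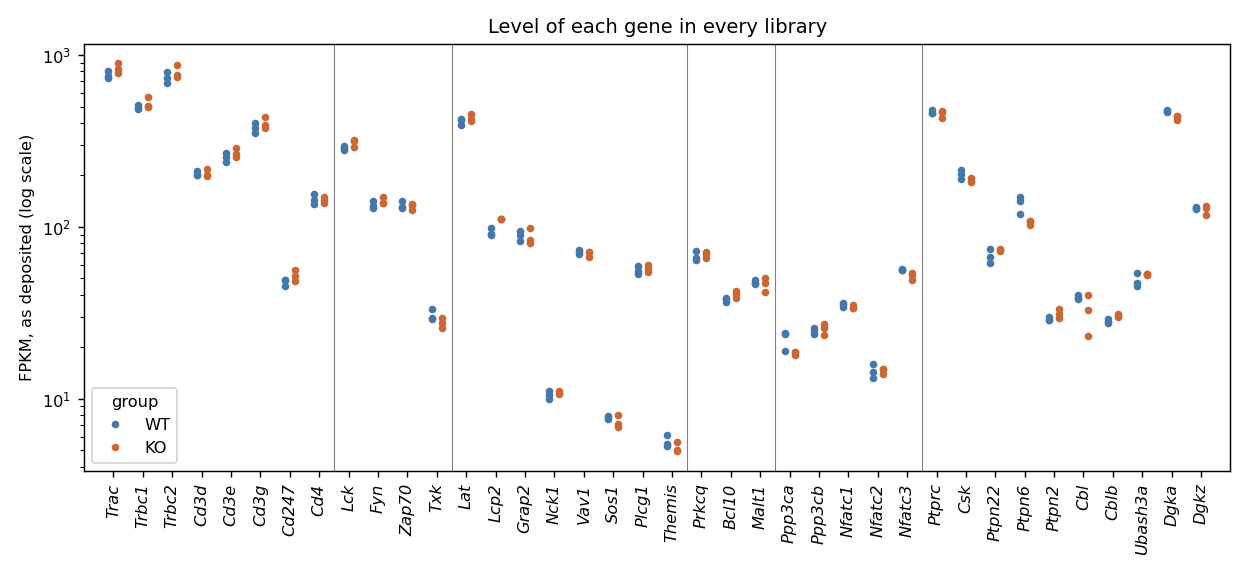
Deposited FPKM (vertical axis, log scale) of the 38 genes in each of the 3 WT and 3 KO libraries, ordered by role as receptor, kinases, adaptors, PKC theta and its partners, calcineurin and NFAT, and regulators. Levels run from Trac at the top to Themis at the bottom, and WT and KO points lie side by side for most genes.

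For the receptor chains and Cd4 no difference passed the test. Of the 8 genes 0 passed the edgeR test, 1 (Trac) had an unadjusted p under 0.05, and DESeq2 (7.91% of all genes called) and limma-voom (5.14%) each called 0. An unadjusted p under 0.05 was found for 7 of the 38 members and for 21.8% of all genes tested. Trac, the constant region of the alpha chain, measured 305, 332 and 310.4 CPM in WT and 326, 342 and 372 CPM in KO. The groups overlapped, since WT replicate 2 lay above KO replicate 4, and the log2 fold change was 0.13 (edgeR, SE 0.06, adjusted p = 0.215). Log2 fold changes of the beta chain constant regions were 0.08 for Trbc1 and 0.11 for Trbc2. These near-identical copies lie within 10.1 kb on chromosome 6, so the split of reads between them is uncertain. Cd3g, Cd3d and Cd3e, which sit within 40.1 kb on chromosome 9 and encode the gamma, delta and epsilon chains, had log2 fold changes of 0.10, 0.01 and 0.08. Cd247 (zeta) stood at 0.13 and the co-receptor Cd4, which brings LCK to the complex, at -0.01. The sign was positive for 7 of 8 genes, and their median log2 fold change was 0.09, beside 0.06 for the 19 general T cell markers. KO replicate 6 was the highest library for each of the 7 chain genes. Cd247 overlaps Pou2f1 on the opposite strand, which averaged 107 CPM, and reads of the 2 genes cannot be separated without knowledge of strand.

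Nor did the kinases that start the cascade differ past the threshold. Of the 4, 0 passed the edgeR test, 0 had an unadjusted p under 0.05, and DESeq2 and limma-voom called 0. Lck, the Src-family kinase bound to CD4, measured 822, 869.5 and 849 CPM in WT and 926, 859 and 949.7 CPM in KO. WT replicate 2 lay above KO replicate 5, and the log2 fold change was 0.11 (edgeR, SE 0.05, adjusted p = 0.285). Fyn, its close relative, stood at 0.08 and Zap70 at -0.01. Txk, a Tec-family kinase that phosphorylates phospholipase C gamma, had the lowest level per length of the 4, at 30.6 FPKM in WT. Its CPM values were 81.2, 70.5 and 71.6 in WT against 67.3, 62.5 and 72.1 in KO, a log2 fold change of -0.15 (edgeR, SE 0.07, adjusted p = 0.265). The ratio of Lck to Fyn CPM ran from 1.42 to 1.46 in WT and from 1.42 to 1.56 in KO, so the balance of the 2 Src-family kinases overlapped between genotypes.

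Among the adaptors and effectors the change was in Lcp2. SLP-76 is the scaffold that ZAP-70 phosphorylates and that holds VAV1 and NCK near LAT. Lcp2 (chromosome 11, 34046920 to 34092295, plus strand of GRCm38) measured 399.7, 436 and 408 CPM in WT replicates 1, 2 and 3 and 494, 496 and 501 CPM in KO replicates 4, 5 and 6. The KO libraries lay close together and all above the highest WT library. Means were 415 ± 19.2 CPM in WT and 497 ± 3.66 CPM in KO (SD, n = 3 each), a fold change of 1.20 (95% interval 1.11 to 1.30; log2 0.26, SE 0.05; edgeR adjusted p = 0.0106). The call was lost without WT replicate 1 (adjusted p = 0.0570) or without WT replicate 3 (0.0720), at log2 fold changes of 0.24 and 0.25. An opposite-strand gene that overlaps Lcp2, 4930469K13Rik, averaged 4.38 CPM, a small amount beside the difference. The summed Treg-defining genes were higher in KO as well, from a mean of 3298 to 3954 CPM, and their part in the change of Lcp2 was not tested.

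Partners of SLP-76 did not pass the test. Lat, the membrane scaffold, measured 517, 529 and 485 CPM in WT and 515, 524 and 566 CPM in KO, with overlapping groups and a log2 fold change of 0.07 (edgeR, SE 0.06, adjusted p = 0.541). Grap2, the GADS adaptor that links SLP-76 to LAT, stood at -0.02. The guanine nucleotide exchange factors Vav1 and Sos1 were at -0.04 and -0.09, the adaptor Nck1 at 0.05 and Plcg1, the phospholipase that splits the calcium and diacylglycerol branches, at 0.05. Themis, a thymocyte-selection protein that binds GRB2, was at -0.11. The proportion of the scaffolds to one another therefore moved with Lcp2. Lcp2 CPM per Zap70 CPM was 1.41, 1.42 and 1.45 in WT and 1.70, 1.81 and 1.67 in KO. The ratio of Lcp2 to Lat was 0.774, 0.825 and 0.841 in WT and 0.959, 0.947 and 0.886 in KO. Against Grap2 it was 1.34, 1.55 and 1.56 in WT and 1.59, 1.87 and 1.97 in KO. In all 3 ratios every KO library lay above every WT library, most narrowly against Grap2. These ratios share the Lcp2 values and are no separate evidence of its change.

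The NF-kappaB branch runs from PKC theta (Prkcq) to BCL10 and MALT1, and its 3 members here did not pass the edgeR test (0 with an unadjusted p under 0.05; 0 called by DESeq2 or limma-voom). Prkcq measured 419, 459.5 and 407 CPM in WT and 438, 418 and 453 CPM in KO, overlapping, with a log2 fold change of 0.03 (edgeR, SE 0.06, adjusted p = 0.855). Bcl10 measured 64.9, 66.8 and 68.5 CPM in WT and 75.0, 71.2 and 68.6 CPM in KO. Its groups did not overlap in CPM, but KO replicate 6 exceeded WT replicate 3 only slightly. In deposited FPKM they did overlap, with WT replicate 3 at 38.7 and KO replicate 6 at 38.6. The log2 fold change of 0.10 (SE 0.06) had an edgeR adjusted p of 0.350. Over all genes tested the libraries of the 2 groups failed to overlap in CPM for 26.3%, 13.7% with KO above and 12.6% with KO below. Among the 38 members 3 lay above and 4 below. Malt1, the protease of the complex, stood at -0.03.

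Calcineurin and NFAT carry the calcium signal to the nucleus. In the edgeR fit 0 of these 5 genes passed, 2 (Ppp3ca and Nfatc3) had an unadjusted p under 0.05, DESeq2 called Ppp3ca and limma-voom called 0. Ppp3ca, the alpha catalytic subunit of calcineurin (chromosome 3, 136670124 to 136937727, plus strand), measured 131, 103.8 and 133 CPM in WT and 99.9, 103.1 and 103.5 CPM in KO. WT replicates 1 and 3 stood well apart, whereas WT replicate 2 was level with the KO libraries. The log2 fold change was -0.26 (edgeR, SE 0.08, adjusted p = 0.0954). Leaving out WT replicate 2 gave -0.36 (edgeR adjusted p = 0.00170), WT replicate 1 -0.21 (0.283) and WT replicate 3 -0.20 (0.287). Without KO replicate 4, 5 or 6 the edgeR adjusted p of Ppp3ca was 0.213, 0.223 or 0.215. Its partner isoform Ppp3cb stood at 0.04, and the ratio of Ppp3ca to Ppp3cb overlapped between genotypes, at 0.910, 0.684 and 0.852 in WT and 0.606, 0.662 and 0.7296 in KO.

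Nfatc3, the NFAT gene with the highest level per length, measured 342, 338.6 and 339.0 CPM in WT and 327, 316 and 298 CPM in KO. All KO libraries lay below all WT libraries, with a log2 fold change of -0.11 (edgeR, SE 0.05, adjusted p = 0.225). Nfatc1, whose short isoform is induced by the pathway itself, was at -0.04, and Nfatc2 at 0.03.

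Of the 10 regulators 1 passed, and it was Ptpn6. SHP-1 is a cytoplasmic tyrosine phosphatase, abundant in blood cells, that binds inhibitory receptors and removes phosphate from proximal kinases and adaptors, and B cells use it as well. Ptpn6 (chromosome 6, 124720707 to 124738714, minus strand) measured 421, 332 and 396 CPM in WT replicates 1, 2 and 3 and 303, 287 and 305 CPM in KO replicates 4, 5 and 6. The groups did not overlap, the WT libraries were spread widely, and WT replicate 2 came nearest to the KO libraries. Means were 383 ± 46.0 CPM in WT and 299 ± 9.84 CPM in KO (SD, n = 3 each), a ratio of 0.780 (95% interval 0.693 to 0.879; log2 -0.36, SE 0.08; edgeR adjusted p = 0.0206). The call was lost without WT replicate 1 (adjusted p = 0.0587), WT replicate 3 (0.0988), KO replicate 4 (0.0708), KO replicate 5 (0.0966) or KO replicate 6 (0.0878), and without WT replicate 2 the adjusted p was 0.000274. Ptpn6 per Lck CPM was 0.512, 0.381 and 0.466 in WT and 0.328, 0.334 and 0.321 in KO, every KO value below every WT value.

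Among the WT libraries Ptpn6 and Ppp3ca were lowest where the B cell marker level was lowest, as were Txk, Vav1, Sos1, Nfatc3, Ptprc and Csk. That library, WT replicate 2 (marker sum 2409 CPM), also had the highest WT value of Lcp2, of every receptor chain and of Cd4. The share of all genes with either order was not computed. Within KO the marker sums and gene levels spanned narrow ranges, and their order was not tested. KO replicate 5 had the highest KO marker sum (1826 CPM) and the lowest Ptpn6 (287 CPM). KO replicate 6 had the lowest sum (1469 CPM) and the highest KO values of Ptpn6 (305 CPM) and Ppp3ca (103.5 CPM). With the B cell score, the mean log2 CPM of the markers, as a covariate in edgeR, the log2 fold change was -0.07 (adjusted p = 0.931) for Ptpn6, 0.08 (0.909) for Ppp3ca and 0.14 (0.738) for Lcp2. That fit called 43 of 13626 genes (0.316%), against 6.5% without the covariate, and every WT library had a higher score than every KO library. Without WT replicates 1 and 3, which carry the most B cell marker RNA, the log2 fold changes were -0.15 (adjusted p = 0.530) for Ptpn6, -0.02 (0.950) for Ppp3ca and 0.19 (0.388) for Lcp2, and 1.94% of genes were called. A single WT library remained there and was assumed to vary like the KO libraries. Split by whether B cells are known to use the gene, 20 members had a median log2 fold change of -0.02 (quartiles -0.09 and 0.05) and the 18 others one of 0.07 (quartiles -0.01 and 0.11), with 1 call in each. The split went by known use and not by level in B cells, and the difference was not tested. The part of other cell types in the change of Ptpn6 was not tested further.

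**Figure D3:**
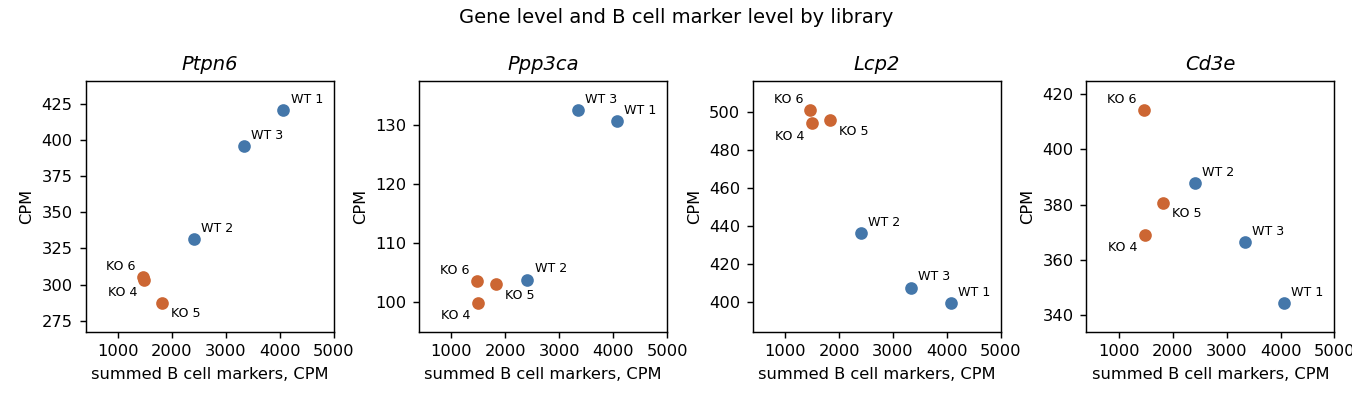
CPM of Ptpn6, Ppp3ca, Lcp2 and Cd3e (vertical axes, not starting at 0) against the summed CPM of the 18 measured B cell markers (horizontal axes) in the 3 WT and 3 KO libraries, each point 1 library. The KO libraries lie at 1469 to 1826 CPM of marker RNA and the WT libraries at 2409 to 4068 CPM. WT replicate 2 is the WT library nearest to the KO libraries in level of Ptpn6, Ppp3ca and Lcp2, and lies within their range for Cd3e.

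The other phosphatases and the kinase that opposes LCK did not pass. Ptprc, which encodes CD45 and both activates and restrains Src kinases, measured 2594, 2589.7 and 2702 CPM in WT and 2688, 2645 and 2469 CPM in KO, overlapping, at a log2 fold change of -0.02. Ptpn22 stood at 0.12 and Ptpn2, which also acts on JAK kinases, at 0.11. Csk, which phosphorylates the inhibitory tail of LCK, was at -0.12, with CPM values of 587, 524 and 559 in WT and 507, 500.1 and 534 in KO. Ubash3a, a phosphatase-like suppressor of receptor signalling, was at 0.12.

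The Cbl ubiquitin ligases tag receptor components for turnover, and CBL-B sets the need for CD28 costimulation. Cblb measured 174, 176 and 185 CPM in WT and 197, 191 and 192 CPM in KO, with every KO library above every WT library (log2 fold change 0.12, SE 0.05, edgeR adjusted p = 0.221). Cbl measured 194, 203 and 197.5 CPM in WT but 205, 167 and 119 CPM in KO, the widest spread of any member: the coefficient of variation was 26.3% in KO and 2.23% in WT. KO replicate 4 was above the WT libraries and KO replicate 6 far below them. Its log2 fold change was -0.27 (edgeR, SE 0.21, adjusted p = 0.546). Leaving out KO replicate 6 gave -0.09 and leaving out KO replicate 4 gave -0.47, and at this spread a difference was not detectable. The ratio of Cblb to Cbl was 0.894, 0.865 and 0.938 in WT and 0.958, 1.14 and 1.61 in KO.

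Diacylglycerol kinases end the lipid signal made by phospholipase C gamma. Dgka had the highest WT mean per length among the regulators (470 FPKM against 462 for Ptprc, with overlapping libraries), while in KO Ptprc was higher (456 against 432 FPKM). Dgka measured 1348, 1323 and 1303 CPM in WT and 1238, 1177 and 1248 CPM in KO. Every KO library was below every WT library, and the log2 fold change was -0.12 (edgeR, SE 0.05, adjusted p = 0.191). Pmel, a gene that overlaps Dgka on the opposite strand, measured 20.7, 23.9 and 27.4 CPM in WT and 28.7, 33.8 and 33.5 CPM in KO, the reverse order, and counts of the pair cannot be separated without knowledge of strand. Dgkz stood at -0.03.

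**Figure D4:**
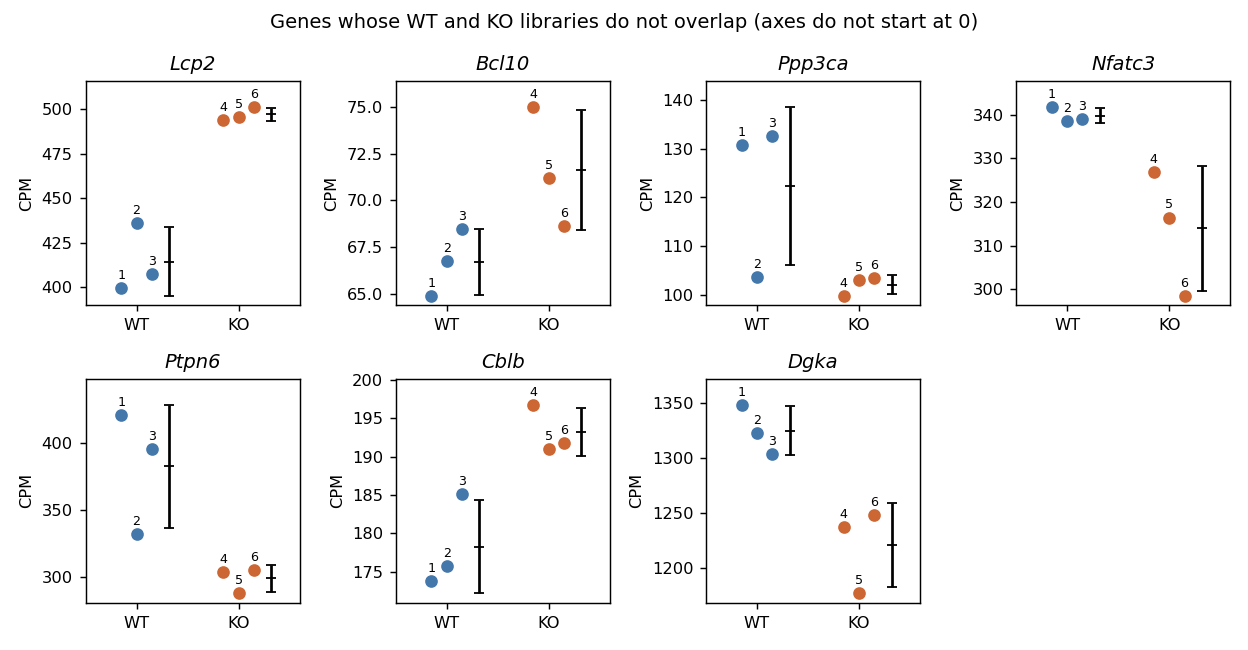
CPM (vertical axes, not starting at 0) of the 7 genes whose WT and KO libraries do not overlap in CPM. Bcl10 overlaps in deposited FPKM. Numbered points are libraries, and bars show the mean ± SD of each group (n = 3). Lcp2, Bcl10 and Cblb are higher in KO and Ppp3ca, Nfatc3, Ptpn6 and Dgka lower, of which Lcp2 and Ptpn6 passed the adjusted threshold.

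Other genes of the pathway were taken from a list of 90, of which 89 were tested. The KO level was higher for 3 of them and lower for 7, where the same rule called 3.68% of all genes higher and 2.83% lower, and their log2 fold changes had a median of -0.02. Ctla4, the inhibitory receptor that competes with CD28 and is a defining product of Tregs, rose from 661 ± 74.5 to 957 ± 46.6 CPM (log2 0.53, edgeR adjusted p = 0.00220), and Cd28 itself from 328 ± 33.1 to 427 ± 21.7 CPM (log2 0.38, 0.00817). Skap1, which couples the receptor to integrins, rose from 234 ± 11.5 to 277 ± 18.6 CPM (log2 0.24, 0.0331). Orai2, a store-operated calcium channel subunit, fell from 115 ± 12.1 to 88.2 ± 3.83 CPM (log2 -0.38, 0.00915). Nedd4, a ubiquitin ligase, fell from 16.5 ± 0.446 to 10.7 ± 1.67 CPM (log2 -0.62, 0.0107), and Map2k1, the MEK1 kinase, from 98.4 ± 1.65 to 83.4 ± 2.43 CPM (log2 -0.24, 0.0221), all with n = 3 each. Rasal3, Ikbkb and Inpp5d also fell by 0.21, 0.23 and 0.19 on the log2 scale. Upper-quartile scaling gave 4 higher and 3 lower (4.35% and 2.37% of all genes). The number lower was 2, 1, 1 and 3 without WT replicate 1, WT replicate 3, KO replicate 5 and KO replicate 6, when 2, 1, 2 and 2 were higher. Calls over all genes fell in these leave-out fits too. In the same order 1.24%, 0.918%, 1.19% and 0.964% were lower, and 2.06%, 1.71%, 1.8% and 1.95% higher. With the B cell score as covariate 0 of this list passed (9 at an unadjusted p under 0.05).

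Transcripts that receptor signals are known to induce were examined beside the machinery. Of 19 such genes 11 rose past the threshold, 8 did not pass, and none passed as lower (3.68% of all genes were called higher). The median was 0.43 on the log2 scale, with values from -0.41 to 2.11. All KO libraries lay above all WT libraries for 12 genes and below them for 1, against 13.7% and 12.6% of all genes tested. DESeq2 called 1 of the 19 lower. The list was chosen with results of these data known and is no independent evidence of its direction. Cd69, an early activation marker, was 126, 159.7 and 157 CPM in WT and 292, 325 and 306 CPM in KO (log2 1.06, SE 0.09, edgeR adjusted p = 0.000143). Nfkbid, a nuclear inhibitor-like regulator of NF-kappaB, rose from 156 ± 11.0 to 250.2 ± 15.7 CPM (log2 0.68). Bhlhe40, a transcription factor of activated T cells, rose from 45.2 ± 6.96 to 122 ± 11.3 CPM (log2 1.43, edgeR adjusted p = 0.000435), and the cytokine gene Ifng from 4.18 ± 0.744 to 11.2 ± 0.898 CPM (log2 1.42, 0.000226; SD, n = 3 each). Named after their values were seen, Nr4a1, an immediate early gene of receptor signalling, rose from 501 ± 104 to 1039 ± 84.6 CPM (log2 1.05, 0.0331), while Egr1 and Egr2, of the same early class, stood at log2 0.00 and 0.02 and the calcineurin and NFAT target Rcan1 at 0.11. Without WT replicate 3 or without KO replicate 5 the number that rose was 7, and with the B cell score as covariate it was 4. Of all genes, those fits called 1.71%, 1.8% and 0.198% higher. Other stimuli can induce these genes too, and receptor signalling was not measured.

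**Figure D5:**
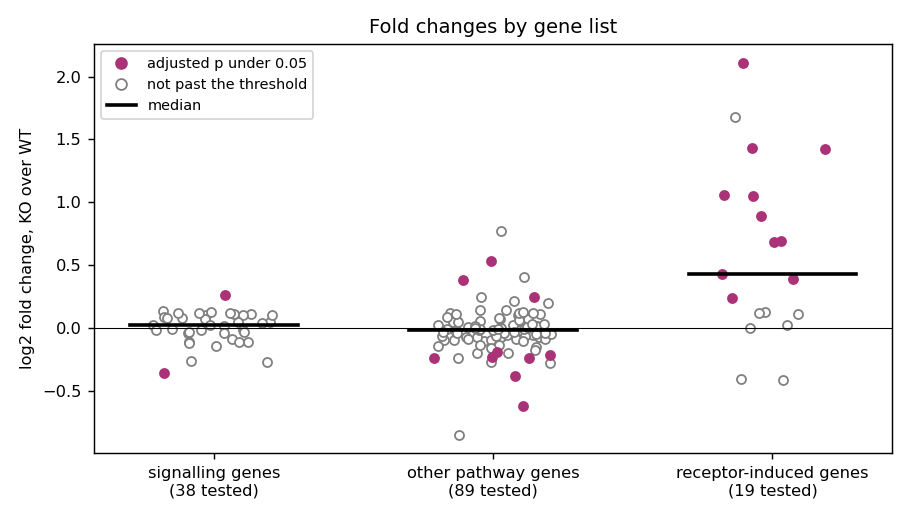
Log2 fold change, KO over WT (vertical axis), of each tested gene in the list of 38 signalling genes, the list of other pathway genes (89 tested) and the list of receptor-induced genes (19); filled points passed the adjusted threshold and bars are medians. The medians are 0.03, -0.02 and 0.43.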

How the data were processed

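RNA was sequenced from 3 WT and 3 KO libraries. The submitters' processing notes name bcl2fastq, STAR 2.4.2a, DESeq2 and the build GRCm38. How reads were counted, with or without strand and on which annotation, is not given in the sources used. The authors deposited raw counts per gene, normalized counts (a signal, equal to the raw counts over 1 factor per library within 1e-06 for at least 99.87% of genes over 50 counts) and FPKM.

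Symbols and positions came by gene ID from GENCODE M21, which named 35412 of 37187 IDs; the rest, 0.260% to 0.308% of counts, were kept in the fit. Raw counts were tested two-sided with edgeR 4.0.16 in R 4.3.3 (filterByExpr, TMM, robust quasi-likelihood fit, Benjamini-Hochberg adjustment over 13626 genes, threshold 0.05), after the script was tested on simulated data. Standard errors came from the F statistic. CPM compares 1 gene between libraries and FPKM compares genes. No 2 libraries agreed within sampling noise (chi-square over degrees of freedom 5.16 to 14.6 within groups).

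Members and lists were chosen with earlier results of these data known. Values per library are given for members that passed, members without overlap between groups and the highest WT or KO mean FPKM of each role, and of the other lists for up to 6 and up to 4 called genes of smallest p. Members outside this rule whose values are printed (Txk, Csk and Cbl) were chosen after their values were seen. Alternatives were DESeq2 1.42.0, limma-voom and limma 3.58.1 on log2(FPKM + 1) and log2(FPKM + 0.1), other scalings and filters, the B cell score as covariate and leaving out libraries. Some genes of the lists are counted but not reported by name here.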

Additional observations from a re-analysis of the deposited data

How the results depend on the processing

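No paired analysis was possible because WT and KO share no replicate numbers. Of 646 log2 fold changes of members under 17 alternatives, 581 kept direction and side of the threshold, 15 lost the call, 3 gained it (all Ppp3ca) and 47, none of them called, changed sign; 35 members were called in no setting. Against 1 member higher and 1 lower, the counts were 1 and 2 with DESeq2 and with no filter, where Ppp3ca was added. They were 0 and 0 in limma on log2(FPKM + 1) and on log2(FPKM + 0.1), where 5 and 6 members had an unadjusted p under 0.05. They were 0 and 0 with the B cell score as covariate and without WT replicates 1 and 3, where 1 member did in each. Leaving out 1 library gave 0 to 1 higher and 0 to 2 lower. Over all genes, calls in either direction were 7.91% with DESeq2, 6.83% with no filter and 0.316% with the B cell score as covariate. Limma called 1.31% on log2(FPKM + 1) and 1.3% on log2(FPKM + 0.1), and leaving out 1 library gave 2.63% to 9.73%. The log2 fold changes of Lcp2 (0.14 to 0.30) and Ptpn6 (-0.45 to -0.07) kept their sign in all settings. For other pathway genes (3 higher, 7 lower) the counts were 4 and 10 with DESeq2, 5 and 11 with no filter, 4 and 3 with upper-quartile factors, 0 and 1 in limma on log2(FPKM + 1), 0 and 0 on log2(FPKM + 0.1), 0 and 0 with the covariate, 1 and 0 without WT replicates 1 and 3, and 1 to 4 and 1 to 9 when 1 library was left out. For receptor-induced genes (11 higher, 0 lower) they were 12 and 1 with DESeq2, 10 and 1 with no filter, 4 and 0 with the covariate, and 7 to 11 and 0 to 1 when 1 library was left out. The cause of these differences was not tested. Signs that changed with the covariate were those of Trac (-0.029), Trbc1 (-0.059), Trbc2 (-0.15), Cd3d (-0.095), Cd3e (-0.11), Cd3g (-0.13), Lck (-0.020), Fyn (-0.030), Lat (-0.036), Grap2 (0.027), Nck1 (-0.082), Plcg1 (-0.12), Prkcq (-0.16), Malt1 (0.090), Ppp3ca (0.082), Nfatc2 (-0.17), Ptprc (0.044), Ptpn22 (-0.13) and Ubash3a (-0.096). Without WT replicates 1 and 3 they were those of Cd3d (-0.025), Nck1 (-0.020), Vav1 (0.0073), Plcg1 (-0.040), Prkcq (-0.073), Nfatc2 (-0.11), Ptprc (0.0069), Ptpn22 (-0.017) and Ubash3a (-0.016), and with upper-quartile factors those of Cd4 (0.010), Zap70 (0.0085), Grap2 (0.0054) and Ptprc (0.0071). Leaving out 1 library changed the sign of Cd3d (-0.034 to 0.045), Cd4 (-0.059 to 0.042), Zap70 (-0.042 to 0.032), Grap2 (-0.11 to 0.042), Prkcq (-0.0094 to 0.083), Malt1 (-0.093 to 0.042), Ppp3cb (-0.014 to 0.094), Nfatc2 (-0.038 to 0.10), Ptprc (-0.038 to 0.023) and Dgkz (-0.067 to 0.020), given as the range over the 6 libraries. Each member had at least 865 counts in every library, and precision rests on 3 libraries per group.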

Other observations

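Pmel, the premelanosome gene on the strand opposite to Dgka, was the only one of 5 melanocyte genes looked up with more than 3 counts in a library. It passed the edgeR test as higher in KO (log2 fold change 0.42, SE 0.11, adjusted p = 0.0376). Dct, Tyr and Tyrp1 had 0 counts in all 6 libraries, and Mlana had 0 to 3. The gene was chosen after its values were seen.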
